A study of Mus musculus with 8 samples.

Results

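The genes described here are 8 in number: *Runx1*, *Ncam1*, *Hdac4*, *Hdac9*, *Dach2*, *Gadd45a*, *Trim63* and *Fbxo32*. They were chosen by name as genes known to respond when adult muscle loses its nerve or stops working, and all 8 have probes among the 19465 genes measured. Their UMIs (unique molecular identifiers, 1 per captured probe pair) were read in 8 sections of embryonic mouse diaphragm on the 10x Visium platform for formaldehyde-fixed, paraffin-embedded tissue. At embryonic day E14.5 there were 3 control sections and 1 section of a CaV1.1 KO. At E18.5 controls gave 2 sections, and a CaV1.1 KO and a β-cat cKO gave 1 section each. The CaV1.1 KO (genotype CaV1.1 -/-, also called dysgenic) lacks the voltage sensor of excitation-contraction coupling in every cell, so its muscle carries electrical activity and is innervated but does not contract. In the β-cat cKO (bCat cKO), Cre driven by the HSA (human skeletal actin) promoter removes floxed β-catenin from skeletal muscle. Controls kept at least 1 working allele of each gene, and because of the crosses used they may be heterozygous for either or carry Cre. The same crosses allow a CaV1.1 KO that carries Cre or floxed β-catenin, and a β-cat cKO that is heterozygous for CaV1.1. Each mutant group is 1 embryo, and its spread is taken from the controls.

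In adult muscle, nerve-driven activity keeps a set of genes silent, and denervation releases it through a relay of nuclear repressors. Class IIa histone deacetylases (*Hdac4*, *Hdac9*) bind MEF2 factors and, with the corepressor *Dach2*, set the level of myogenin and of the acetylcholine receptor genes. Denervated muscle is known to gain *Hdac4*, *Gadd45a* (a stress-inducible nuclear protein), *Runx1* (a transcription factor that limits wasting) and *Ncam1* (a cell adhesion molecule, otherwise kept to synapses), and to lose *Dach2* and *Hdac9*. Atrophy follows through the muscle ubiquitin ligases *Trim63* (MuRF1) and *Fbxo32* (atrogin-1), which mark proteins for the proteasome. Embryonic muscle is still building its fibers and synapses.

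Spots under tissue with at least 1000 UMIs were kept, 683 to 3460 a section, from tissue with 14179161 to 82859104 UMIs a section. Muscle spots, picked by the mean of 9 muscle genes that include none of the members, numbered 491 to 3092 a section. Those 9 genes together held 21642 to 27362 raw CPM (UMIs per 1000000 of the sum) in muscle spots of E14.5 controls, 128417 and 131917 in E18.5 controls, 16235 in the E14.5 KO, 71384 in the E18.5 KO and 105199 in the cKO. Hepatocyte genes summed to between 0.6 and 795 raw CPM in muscle spots and did not follow genotype. A spot is 55 µm wide and holds several cells, so fewer fibers in a spot and less RNA per fiber cannot be told apart. *Cacna1s*, which encodes CaV1.1, was at 16.2 raw CPM in KO muscle spots at E14.5 against 18.9, 18.3 and 22.8 in controls, and at 31.4 against 61.2 and 63.9 at E18.5. *Ctnnb1* (β-catenin) was at 81.5 in the cKO against 75.9 and 71.2. Where the probes lie relative to the mutation or the floxed exons is not given in the sources used here, so these values do not check the labels.

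Levels below are CPM after TMM scaling, which assumes that most genes do not change between sums, unless called raw. The choice matters here, because contractile transcripts take a share of the UMIs that differs between groups. Scaling to total UMIs alone moved the median log2 difference of all genes from -0.01 to -0.73 between stages, from 0.00 to 0.54 for the KO at E18.5 and from -0.01 to 0.21 for the cKO. It left the KO comparison at E14.5 at 0.01. Scaling to the 9 muscle genes moved those 4 medians to -3.19, 1.40, 0.52 and 0.56. Every change named in muscle spots is therefore one relative to the median gene, and where the direction of a printed member value turned with the scale, that is said beside it.

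Promoter sequence was on hand in RefSeq (GRCm38.p6) for 6 of the 8 members, in 9 windows of 250 bases before an annotated start, and *Ncam1* and *Fbxo32* had no entry. Windows are shown for 3 members on which the comparisons turn. *Gadd45a* was higher in the KO at both stages, and *Trim63* marked muscle over other tissue. *Hdac9* was lower in both E18.5 mutants on the TMM scale, but higher in the KO when scaled to the muscle genes (0.62). Capitals mark matches on either strand to the E-box CANNTG (bound by MyoD and myogenin) including its form CAGCTG, the forkhead core TGTTTAC (bound by FoxO factors), the octamer ATGCAAAT (bound by POU factors) and CCAAT (bound by NF-Y). TGTGGT, the core bound by Runx factors, and the MEF2 site by name were also searched.
Gadd45a, minus strand, chr6:67037458-67037657, ending before the first base of the gene in GENCODE: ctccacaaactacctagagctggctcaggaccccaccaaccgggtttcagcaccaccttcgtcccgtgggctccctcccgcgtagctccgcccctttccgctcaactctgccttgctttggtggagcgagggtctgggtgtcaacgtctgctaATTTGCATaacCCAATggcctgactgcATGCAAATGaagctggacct
Hdac9, minus strand, chr12:34917096-34917345, ending before the first base of the gene: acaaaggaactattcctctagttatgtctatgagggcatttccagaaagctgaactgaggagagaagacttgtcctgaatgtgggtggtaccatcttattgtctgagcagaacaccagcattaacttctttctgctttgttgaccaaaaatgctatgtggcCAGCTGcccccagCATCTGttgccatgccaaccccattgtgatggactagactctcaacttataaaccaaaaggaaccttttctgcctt
Trim63, plus strand, chr4:134314870-134315119, ending before the first base of the gene: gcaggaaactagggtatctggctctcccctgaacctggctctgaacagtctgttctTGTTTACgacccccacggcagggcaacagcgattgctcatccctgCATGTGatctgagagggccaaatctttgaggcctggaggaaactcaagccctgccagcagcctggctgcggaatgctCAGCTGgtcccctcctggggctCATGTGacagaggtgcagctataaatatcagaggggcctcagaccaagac
The *Gadd45a* window, shown cut to 200 bases at the gene start, held 2 octamers around 1 CCAAT box. An E-box overlapped the second octamer. Of all 32851 RefSeq windows of 250 bases, 1.6% held an octamer and 33.8% CCAAT. In the *Hdac9* window shown there were 2 E-boxes, 1 of the form CAGCTG, which 13% of windows held, and an octamer lay in another window of that gene. Upstream of *Trim63* lay 3 E-boxes, 1 of them CAGCTG, and 1 forkhead core, found in 3.17% of windows, while any E-box lay in 66.2%. None of the 9 windows held the MEF2 site (2.92% of all windows), and TGTGGT (14% of all windows) lay in 1 window of *Dach2*. These are matches of letters and not sites of binding.

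In control muscle, most of the 8 genes were higher at E18.5 than at E14.5 relative to the median gene. edgeR's quasi-likelihood test with Benjamini-Hochberg adjustment over all genes called 6 of 8 higher and none lower, where it called 65.6% of all genes in either direction, 4930 higher and 4796 lower. With total UMI scaling 20.01% of called genes were higher instead of 50.7%, and with scaling to the muscle genes 1.47%.

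*Fbxo32* was at 7.68, 5.78 and 6.28 in the E14.5 controls and at 18.8 and 21.9 at E18.5, and *Trim63* went from 77.1, 58.3 and 55.7 to 131 and 160. The stages did not overlap for either ubiquitin ligase, and the log2 differences were 1.63 (SE 0.15, adjusted p = 4.55e-05) and 1.19 (SE 0.15, adjusted p = 0.000248). *Gadd45a* was at 29.8, 28.1 and 28.6 at E14.5 and at 73.8 and 69.7 at E18.5, a log2 difference of 1.32 (SE 0.08, adjusted p = 5.41e-06). Its raw CPM, which does not use TMM, also separated the stages, from 34.2, 34.3 and 35.5 to 53.6 and 51.0.

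*Ncam1* rose from 220, 186 and 208 to 391 and 406, a log2 difference of 0.96 (SE 0.10, adjusted p = 0.000109). The deacetylases rose by less, *Hdac4* from 50.8, 53.5 and 52.2 to 79.4 and 81.8 (log2 difference 0.63, adjusted p = 0.000137) and *Hdac9* from 41.9, 35.6 and 32.2 to 51.0 and 48.4 (0.44, adjusted p = 0.0112). Both turned with total UMI scaling, *Hdac4* to -0.10 and *Hdac9* to -0.28, and in raw CPM *Hdac4* overlapped between stages, at 58.2, 65.4 and 64.7 against 57.6 and 59.9. *Runx1* was at 4.01, 5.75 and 4.40 and then at 6.07 and 6.76, with no overlap but no call (log2 difference 0.43, adjusted p = 0.0691, or -0.29 with total UMI scaling). *Dach2*, the member with the fewest UMIs in every section, was at 0.80, 1.0 and 1.07 and then at 1.91 and 1.39 (0.79, adjusted p = 0.0557). Scaled to the 9 muscle genes, whose sum rose more than any member, all 8 differences turned negative, from -1.53 to -2.76.

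**Figure D1:**
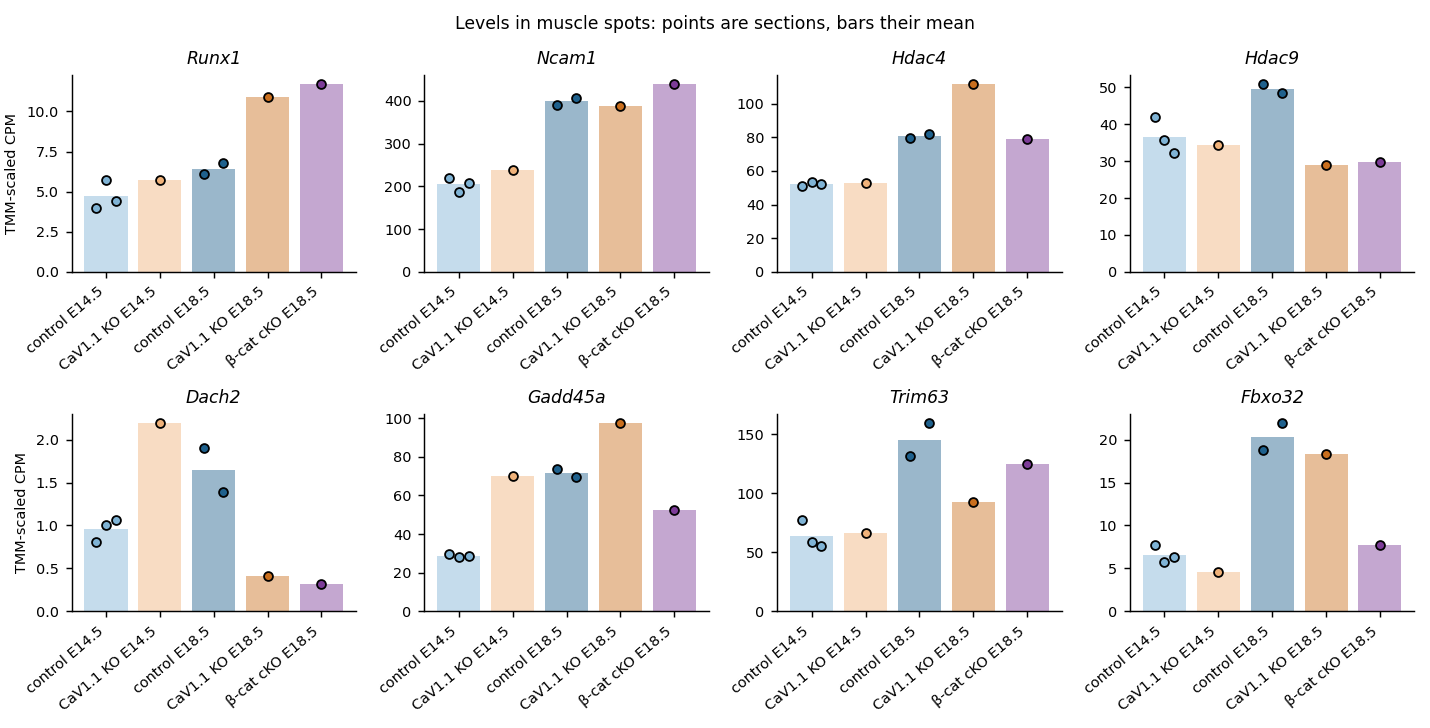
TMM-scaled CPM of the 8 genes in muscle spots; each point is 1 section, each bar the mean of its group, and the axis of each panel starts at 0. *Gadd45a* stands at 70.1 in the E14.5 KO against 28.1 to 29.8 in its controls, and *Fbxo32* at 7.78 in the cKO against 18.8 and 21.9.

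Lists of related genes, written with earlier results of these data known, were read beside the members. Of the 11 genes of the deacetylase and MEF2 relay, 10 were higher at E18.5 and none lower, with a median log2 difference of 1.06 where that of all genes was -0.01. *Camk2b*, a calmodulin-dependent kinase that drives class IIa deacetylases out of the nucleus, had the largest difference of the list at 3.83, followed by *Mef2d* at 1.26 and *Dach1*, the paralog of *Dach2*, at 1.23. Of 24 measured genes of the atrophy program 15 were higher and 2 lower (median 0.56), led by the metallothionein *Mt1* at 2.43, the glucocorticoid-induced factor *Klf15* at 2.40 and the mitophagy receptor *Bnip3* at 2.21. Synaptic genes that activity represses were split, with 2 of 8 higher and 4 lower (median -0.46): the fetal receptor subunit *Chrng* and the myogenic factor *Myog* had log2 differences of -1.69 and -1.15. Among 6 relatives of the members, 1 was lower, the Runx partner *Cbfb* at -0.50, and none higher. With total UMI scaling *Dach1* lost its call.

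The comparison of muscle spots with the other spots of the same section asks where in the tissue the members are read. At E14.5, 7 of 8 members were called, 6 higher in muscle and *Runx1* lower, with 37.4% of all genes called. At E18.5, 6 of 8 were called, all higher in muscle, with 53.2% of all genes called. With total UMI scaling the share of called genes higher in muscle went from 58.3% to 27.6% at E14.5 and from 54.7% to 15.2% at E18.5, and the medians shifted to -0.20 and -0.71.

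*Trim63* had the largest difference of the 8 at both stages. In raw CPM it was at 88.3, 71.2 and 69.1 in muscle spots of the E14.5 controls against 27.6, 20.8 and 14.98 in other spots, and at 95.4 and 117 against 43.7 and 33.6 at E18.5. Its log2 differences were 2.01 (SE 0.16, adjusted p = 0.000170) and 2.16 (SE 0.18, adjusted p = 6.35e-05), and it kept a call under every alternative run. *Gadd45a* differed by 0.58 at E14.5 (adjusted p = 0.0376) and by 1.97 at E18.5 (adjusted p = 0.000199), and *Fbxo32* by 0.76 (adjusted p = 0.0340) and 1.59 (adjusted p = 0.00117). The E14.5 calls of both were lost with total UMI scaling, where *Gadd45a* stood at 0.36 and *Fbxo32* at 0.54, and without control 1 or 2 of E14.5; that of *Gadd45a* was lost without control 3 too (log2 differences from 0.36 to 0.70). *Hdac9* was higher in muscle by 0.86 and 1.21 and *Ncam1* by 0.45 and 1.05, where the E14.5 call of *Ncam1* was lost with total UMI scaling (0.23, adjusted p = 0.136) and without control 1 or 3 of E14.5 (0.45 and 0.31). *Hdac4* was higher by 0.28 and 0.41 on the TMM scale and lower by -0.30 at E18.5 with total UMI scaling, and *Dach2* was not called at either stage. At E14.5 the call of *Hdac4* stood in 4 of 10 alternatives, with differences from 0.07 to 0.40, and was lost without control 2 or 3 of E14.5 or either E18.5 control; at E18.5 it was lost without control 1 (0.32). Of the relay list 7 of 11 genes were higher and 1 lower in muscle at E14.5 and 10 and 1 at E18.5, and of the atrophy list 12 of 24 were higher and 3 lower, then 14 and 2.

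*Runx1*, also a factor of blood stem cells and connective tissue, ran the other way. It was at 12.3, 27.1 and 17.2 raw CPM in the other spots of E14.5 controls and at 4.60, 7.03 and 5.45 in their muscle spots, a log2 difference of -1.48 (SE 0.17, adjusted p = 0.000671) that was called under all 10 alternatives. At E18.5 it was at 10.2 and 11.6 against 4.41 and 4.94, a log2 difference of -0.51 (adjusted p = 0.0552), or -1.22 with a call when scaled to total UMIs. Markers of other cells moved with it: the 4 hematopoietic markers summed to 119, 147 and 134 raw CPM in other spots of E14.5 controls and 61.6, 65.8 and 66.7 in muscle, and the 4 tendon and connective tissue markers to 11473, 13717 and 17254 against 5624, 6784 and 6657, with every marker above 0. Their part in the *Runx1* values was not tested.

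Whether muscle that cannot contract shows these genes early was asked with the KO at E14.5. Of the 8 members 1 was called, *Gadd45a*, higher, with 2.08% of all genes called. It was at 29.8, 28.1 and 28.6 in the 3 controls and at 70.1 in the KO, between the 69.7 and 73.8 of E18.5 controls. The log2 difference was 1.28 (SE 0.09, adjusted p = 0.00553), a fold of 2.43, and the call stood under all 11 alternatives, with log2 differences from 1.26 to 1.84. Outside muscle the gene was higher too, at 60.1 raw CPM in the KO and 21.2, 30.1 and 33.0 in controls.

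None of the other 7 members was called at E14.5. *Dach2* was at 2.19 in the KO against 0.80 to 1.07, from 55 UMIs against 17 to 36, with a log2 difference of 1.20 and a 95% interval from 0.30 to 2.09 (adjusted p = 0.181). *Fbxo32* was at 4.62 against 5.78 to 7.68 (log2 difference -0.51, adjusted p = 0.290, or 0.06 on the muscle gene scale). *Hdac4*, at 53.0 within the range of the controls, had an interval from -0.19 to 0.23, and *Trim63*, at 66.6, one from -0.39 to 0.52. Intervals of *Runx1* (-0.28 to 0.82), *Ncam1* (-0.09 to 0.53) and *Hdac9* (-0.45 to 0.26) also held 0, and *Hdac9* turned from -0.10 to 0.47 on the muscle gene scale. *Hdac4* turned from 0.02 to -0.003 with RLE size factors. Of the lists, the relay genes *Camk2b* and *Camk2a* were lower by -1.16 and -0.81 and no other list gene was called. Hematopoietic markers, with all 4 above 0, summed to 107 raw CPM in KO muscle spots against 61.6 to 66.7, and their part in the *Gadd45a* value was not tested. Scaling to the muscle genes turned the split of called genes at this stage from 25.6% higher to 96.8% and added calls, all higher, for *Ncam1* (0.78), *Dach2* (1.74) and *Trim63* (0.64).

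By E18.5 the KO differed in 4 of 8 members, 2 higher and 2 lower, with 25.7% of all genes called. *Hdac4* and *Gadd45a* were higher and *Hdac9* and *Dach2* lower. Among called genes 41.1% were higher, against 90.6% with total UMI scaling and 99.2% with scaling to the muscle genes.

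*Hdac4* was at 79.4 and 81.8 in E18.5 controls and at 112 in the KO, and in raw CPM at 57.6 and 59.9 against 118. The log2 difference of 0.47 (SE 0.09, adjusted p = 0.0114) was called under all 11 alternatives and was larger on the other scales, up to 1.88. *Gadd45a* was at 73.8 and 69.7 against 97.5 in the KO, a log2 difference of 0.44 (SE 0.10, adjusted p = 0.0185). That call missed the threshold in 1 of 11 alternatives, without control 2 of E18.5 (0.40, adjusted p = 0.0510). Both genes were higher in the KO on every scale used.

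*Dach2* fell to 0.41, from 7 UMIs, where the controls had 1.91 and 1.39 from 105 and 64 UMIs. Its log2 difference was -2.01 (95% interval -3.23 to -0.80, adjusted p = 0.0278), and it was no longer called with DESeq2 (adjusted p = 0.0647), without control 1 of E18.5 (adjusted p = 0.0716), in muscle spots above the median score (adjusted p = 0.0516) or scaled to the muscle genes (-0.62). *Hdac9* was at 51.0 and 48.4 in controls and 28.9 in the KO, a log2 difference of -0.78 (SE 0.17, adjusted p = 0.0142). In raw CPM it was at 37.0 and 35.4 against 30.6, the call was lost with total UMI scaling (-0.24, adjusted p = 0.170) and the direction turned when scaled to the muscle genes (0.62). Outside muscle the gene was higher in the KO, at 45.5 raw CPM against 27.5 and 23.6, and *Gadd45a* was at 44.8 there against 27.8 and 16.5.

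The 4 members without a call included both ligases, whose levels by depth in the muscle are given below. *Trim63* was at 131 and 160 in controls and 92.7 in the KO (log2 difference -0.65, adjusted p = 0.0579), whereas its raw CPM of 98.1 lay between those of the controls, 95.4 and 117. It passed the threshold, lower, in 4 of 11 alternatives and turned to 0.76 on the muscle gene scale. *Fbxo32*, at 18.4 against 18.8 and 21.9, had an interval from -0.62 to 0.32 and turned to 0.39 with total UMI scaling and 1.26 on the muscle gene scale. *Runx1* was at 6.07 and 6.76 in controls and 10.9 in the KO, a log2 difference of 0.77 (SE 0.24, adjusted p = 0.0511) that passed the threshold in 5 of 11 alternatives, among them total UMI scaling at 1.30. The 4 hematopoietic markers, all above 0, summed to 131 raw CPM in KO muscle against 50.3 and 60.5, and their part in the *Runx1* value was not tested. *Ncam1*, at 387 against 391 and 406, had a log2 difference of -0.04 (interval -0.37 to 0.29) and was higher with total UMI scaling (0.50, adjusted p = 0.00943) and muscle gene scaling (1.36).

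**Figure D2:**
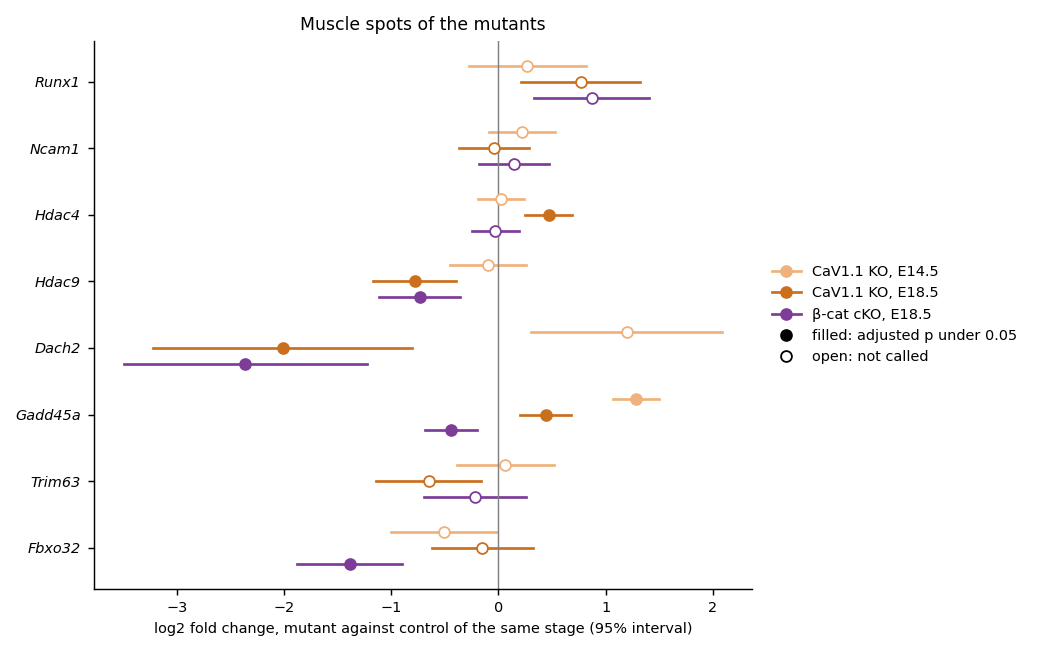
Log2 fold changes (x axis) of the 8 genes in muscle spots of each mutant against the controls of its stage; bars are 95% intervals from edgeR and filled points have an adjusted p under the threshold. *Gadd45a* lies to the right in the KO at both stages and at -0.45 in the cKO (0.08 when scaled to the muscle genes), and *Dach2* at -2.01 and -2.36 in the E18.5 mutants.

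Genes of the surrounding program differed as well at E18.5. Of 8 activity-repressed synaptic genes 4 were higher in the KO and none lower (median 0.60), led by the receptor subunits *Chrnd* at 1.06, *Chrng* at 0.96 and *Chrna1* at 0.72; these subunits are part of the score that picks center spots but not of the one for muscle spots. In the relay, 6 of 11 were lower and none higher (median -0.59), led by *Camk2b* at -1.05, *Camk2g* at -0.97 and *Mef2d* at -0.90. In the atrophy program 7 of 24 were lower and none higher (median -0.27), with *Mstn* (myostatin, an inhibitor of muscle growth) at -1.45, *Trim55* (MuRF2) at -1.04 and *Eif4ebp1* at -0.99. *Ncam2*, 1 of the 6 relatives, was higher by 2.41. *Trim55* lost its call with total UMI scaling, and the 3 relay genes, *Trim55* and *Eif4ebp1* turned positive when scaled to the muscle genes.

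A test of the difference between the stages called 2 of 8 members, *Dach2* and *Gadd45a*, with 6.40% of all genes called. *Dach2* had a KO effect of 1.20 at E14.5 and -2.01 at E18.5, a difference of -3.21 (SE 0.65, adjusted p = 0.0363), with calls in 7 of 10 alternatives. *Gadd45a* had effects of 1.28 and 0.44, a difference of -0.84 (SE 0.14, adjusted p = 0.0257), called in 7 of 11 alternatives and not with total UMI scaling (-0.31, adjusted p = 0.119) or muscle gene scaling (0.01). Neither call stood without control 2 or control 3 of E14.5, nor that of *Dach2* without control 1 of E18.5 (adjusted p from 0.0544 to 0.0895). *Hdac4*, called at E18.5 and not at E14.5, had a difference of 0.45 that was not called (adjusted p = 0.0840). Of the lists, 1 of 8 synaptic genes was higher and none lower, 1 of 11 relay genes and 3 of 24 atrophy genes were lower and none higher, and none of 6 relatives was called. The share of called genes that were higher was 34.7% on the TMM scale, 94.7% with total UMIs and 98.9% with the muscle genes. In E14.5 KO muscle most *Dach2* UMIs lay at the edge, as given above.

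In the β-cat cKO, 4 of 8 members were called, all lower, with 8.80% of all genes called. *Fbxo32* was at 18.8 and 21.9 in E18.5 controls and at 7.78 in the cKO, near the 5.78 to 7.68 of E14.5 controls, with a log2 difference of -1.39 (SE 0.21, adjusted p = 0.0106). It was called in 10 of 11 alternatives, the exception being the muscle gene scale (-0.86, adjusted p = 0.0702). In the cKO's other spots the gene was at 21.1 raw CPM, above both its own muscle spots at 6.59 and the other spots of controls at 8.79 and 7.24.

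*Dach2* was at 0.32 in the cKO, from 13 UMIs, against 1.91 and 1.39 (log2 difference -2.36, SE 0.49, adjusted p = 0.0278), called in 9 of 11 alternatives and not without control 3 of E14.5 (adjusted p = 0.0612) or control 1 of E18.5 (adjusted p = 0.0550). *Hdac9* was at 29.8 against 51.0 and 48.4 (-0.74, SE 0.16, adjusted p = 0.0344), or -0.21 without a call on the muscle gene scale (adjusted p = 0.578). *Gadd45a* was lower, at 52.7 against 73.8 and 69.7 (-0.45, SE 0.10, adjusted p = 0.0419), but neither this call nor that of *Hdac9* stood without control 2 or 3 of E14.5 or control 1 or 2 of E18.5, with adjusted p up to 0.0837 and 0.0612. With total UMI scaling *Gadd45a* was at -0.23 (adjusted p = 0.142) and on the muscle gene scale at 0.08. *Runx1* was at 11.7 (0.87, SE 0.23, adjusted p = 0.0595) and passed the threshold in 5 of 11 alternatives, while *Hdac4*, at 79.0, had an interval from -0.25 to 0.19, and its difference of -0.03 turned to 0.19 with total UMI scaling and 0.50 on the muscle gene scale. *Ncam1* at 439 and *Trim63* at 125 had log2 differences of 0.14 and -0.22 without a call, and *Trim63* turned to 0.31 on the muscle gene scale. Hematopoietic markers summed to 97.2 raw CPM in cKO muscle against 50.3 and 60.5, all 4 above 0, and their part in the *Runx1* value was not tested. Among all called genes 36.1% were higher, 79.9% with total UMI scaling and 94.0% on the muscle gene scale.

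Fewer genes of the lists were called in the cKO than in the E18.5 KO, and so were fewer of all genes (8.80% against 25.7%). Of 8 synaptic genes 1 was higher, *Chrng* at 1.08, and 1 lower (median 0.20). The relay had 2 of 11 lower, *Camk2g* at -0.54 and *Mef2a* at -0.49, the atrophy program 2 of 24, *Bnip3* at -0.79 and *Klf15* at -0.78, and the relatives none. *Mef2a* and *Bnip3* lost their calls with total UMI scaling. Both E18.5 mutants were set against the same 2 controls, so their values are given side by side and no overlap is counted: *Hdac9* was at 28.9 in the KO and 29.8 in the cKO, *Dach2* at 0.41 and 0.32, *Gadd45a* at 97.5 and 52.7, *Hdac4* at 112 and 79.0, and *Fbxo32* at 18.4 and 7.78.

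**Figure D3:**
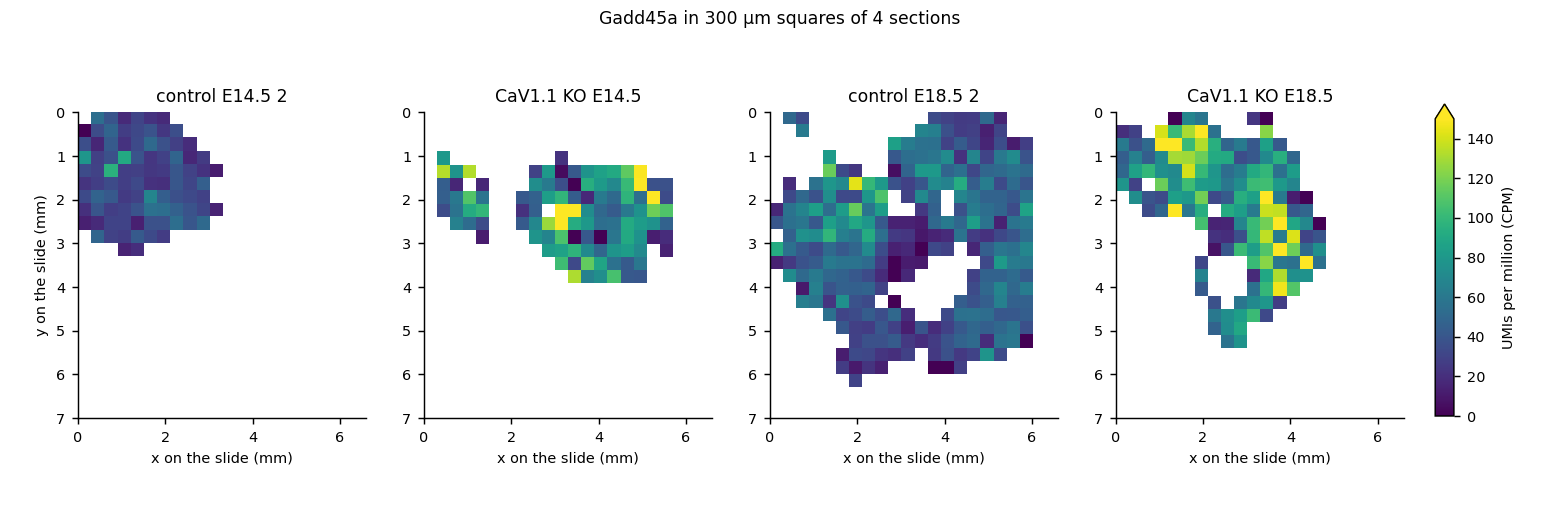
*Gadd45a* in raw CPM (color) over squares of 300 µm of 2 control and 2 KO sections; the axes give the place on the slide in mm, and colors above 150 are drawn at the top of the scale. The KO squares of E14.5 are mostly brighter than those of the control, whose muscle spots hold 34.3 raw CPM against 84.7.

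Fibers of the diaphragm carry their synapses in a central band and attach to tendon at their ends. Muscle spots were therefore divided by 2 gene scores that hold no member into center (the top 15% by synaptic genes), periphery (the top 15% by genes of the myotendinous junction) and intermediate spots. In center spots of E14.5 controls 3 of 8 members were called, all higher, with 14.51% of all genes called, and at E18.5 1 of 8, lower, with 12.1% of all genes called. In periphery spots 1 of 8 was called at E14.5, with 7.66% of all genes called, and 4 of 8 at E18.5, with 30.8% of all genes called. With size factors of the RLE kind, the share of called genes that were higher went from 49.4% to 61.6% in the center and from 41.9% to 55.7% in the periphery at E14.5.

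The members raised in the E14.5 center were *Ncam1*, *Gadd45a* and *Trim63*. *Gadd45a* was at 36.6, 34.7 and 39.3 in center spots and 28.8, 27.6 and 26.7 in intermediate ones, higher in 3 of 3 sections (log2 difference 0.39, adjusted p = 0.000545). *Trim63* was at 87.6, 83.8 and 65.7 against 76.5, 55.1 and 54.9 (0.38, adjusted p = 0.000123), and *Ncam1* at 253, 232 and 226 against 216, 180 and 212 (0.24, adjusted p = 0.000391). The calls of *Trim63* and *Ncam1* were lost without control 2 of E14.5 (0.22 and 0.17). At E18.5 the direction of *Trim63* was the opposite, 115 and 134 in the center and 140 and 173 in intermediate spots (-0.33, adjusted p = 0.000167), with no call by DESeq2 (adjusted p = 0.0713); the difference between the stages was not tested. *Gadd45a* then showed no call in the center (-0.08, interval -0.20 to 0.04). When center meant the muscle spots farthest from other tissue, none of these calls stood, and *Trim63* at E14.5 was at -0.06. The 9 muscle genes moved with *Trim63*, from 26528, 20093 and 22479 raw CPM in intermediate spots to 29706, 25615 and 25136 in the center at E14.5, and from 133639 and 136652 to 118497 and 126101 at E18.5; their part in its values was not tested.

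*Runx1* was higher in periphery spots in all 5 controls. It was at 7.74, 7.96 and 8.38 there against 3.83, 6.0 and 3.30 in intermediate spots of E14.5 sections (log2 difference 0.77, SE 0.23, adjusted p = 0.0337), and at 9.32 and 11.2 against 5.11 and 6.17 at E18.5 (0.86, SE 0.18, adjusted p = 0.000397). The E14.5 call was lost without control 1 or 3 (0.68 and 0.61), and both calls were lost with DESeq2 (adjusted p = 0.0935 and 0.0532), with no change of direction. Tendon and connective tissue markers, all 4 above 0, rose in the same spots, from 5788, 7098 and 6739 raw CPM to 7126, 7518 and 8149 at E14.5 and from 3737 and 5474 to 8391 and 11857 at E18.5, whereas hematopoietic markers ranged from 48.7 to 70.5 in intermediate and from 57.0 to 75.8 in periphery spots. The part of either in the *Runx1* values was not tested.

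The remaining peripheral calls, at E18.5, were all lower. The periphery spots of that stage held more tendon and connective tissue markers, as given above. The paper warns that tendon cells sharing a spot with muscle dilute its transcripts. Their part in the lower values was not tested. *Gadd45a* was at 52.7 and 50.1 in the periphery and 80.3 and 75.3 in intermediate spots (-0.60, SE 0.06, adjusted p = 2.10e-09), called under all 12 alternatives, regions by distance included. *Fbxo32* was at 15.8 and 15.2 against 20.005 and 23.8 (-0.49, adjusted p = 0.000373) and *Trim63* at 123 and 143 against 140 and 173 (-0.23, adjusted p = 0.00243); both calls were lost without control 2 of E18.5 (-0.34 and -0.19) and with DESeq2. *Hdac4*, *Hdac9*, *Ncam1* and *Dach2* had no call in the periphery at either stage. *Ncam1* at E18.5 was called higher with regions of 10% (0.17, adjusted p = 0.0198) and lower when the periphery was set by distance (-0.16, adjusted p = 0.0125). *Hdac4* was called lower at E18.5 in 3 of 12 alternatives (-0.16 to -0.17) and *Dach2* with regions of 10% (-1.30).

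**Figure D4:**
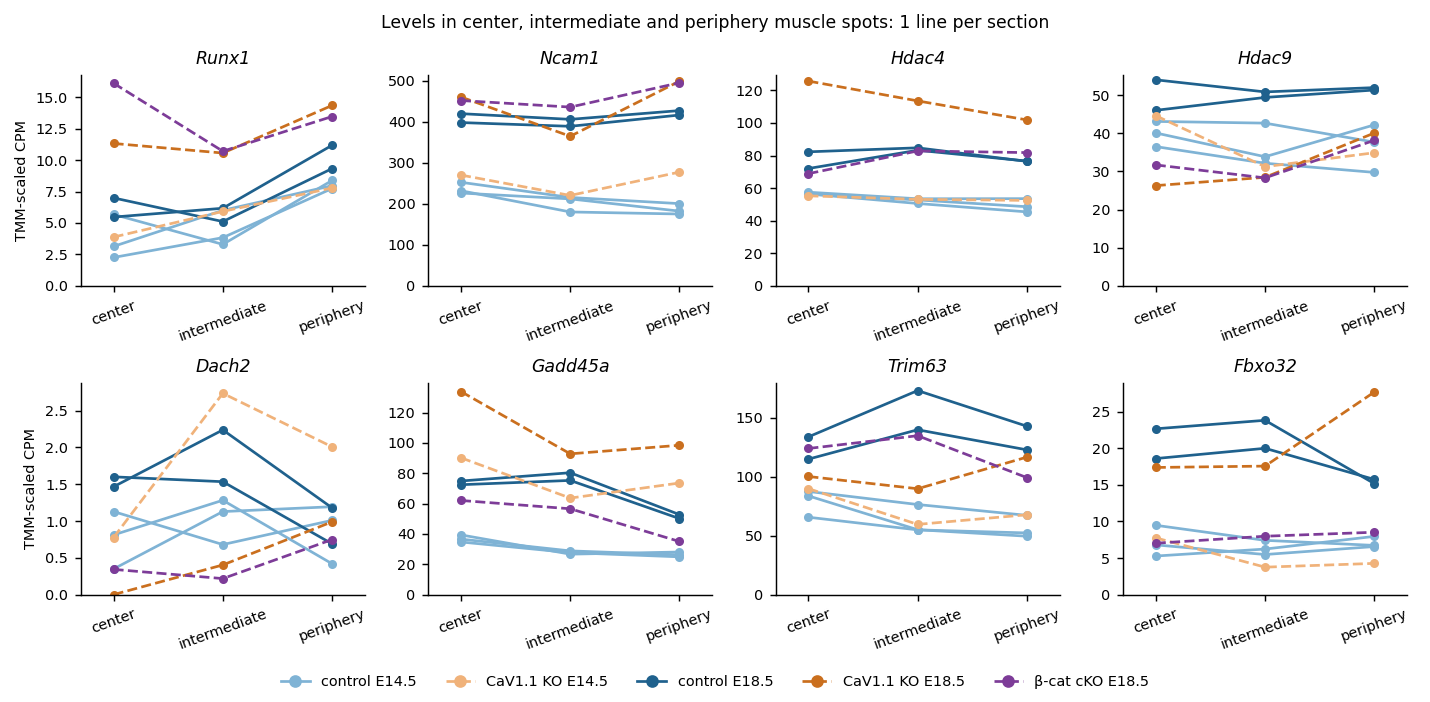
TMM-scaled CPM (y axis, from 0) of the 8 genes in center, intermediate and periphery muscle spots, 1 line per section. *Runx1* lines of the 5 controls end highest in the periphery, and *Gadd45a* of the E18.5 KO stands at 134 in the center; *Dach2* in that KO center has 0 UMIs, which allows up to 1.22 raw CPM.

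The step from intermediate to center spots differed between KO and controls at E18.5 in 2 of 8 members, both higher in the KO, with 3.31% of all genes called. Center spots are those with the highest synaptic score, which includes *Chrna1* and *Musk*. The paper reports that both genes spread over the whole muscle in the E18.5 KO. Center spots of the KO therefore need not be the central band that they are in controls. *Gadd45a* was at 134 in the KO center and 92.8 in its intermediate spots, while the controls had 74.9 and 72.4 against 80.3 and 75.3. The difference of the steps was 0.61 (SE 0.11, adjusted p = 0.00300). For *Trim63* the KO had 100.3 against 89.9, where the controls fell in the center, a difference of 0.49 (SE 0.14, adjusted p = 0.0481). Neither call stood with regions of 10% (0.35 and 0.39), with regions by distance (0.10 and 0.56) or without the section block, and that of *Trim63* was lost without control 1 of E14.5 or either E18.5 control (0.44 to 0.53). Schwann cell markers, all 6 with probes, summed to 248 raw CPM in the KO center and 197 in its intermediate spots, whereas control sections held 107 and 120 in center spots, 59.1 and 63.1 in intermediate spots; their part was not tested.

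Distance from the nearest place without muscle gave a second view of position that uses no genes of the region scores. In control muscle *Runx1* declined with depth into the muscle, from 6.19, 11.2 and 8.29 raw CPM in spots within 101 µm of other tissue or the outline to 2.28, 2.68 and 3.24 at 281 µm or more at E14.5, and from 7.35 and 7.36 to 3.58 and 3.94 at E18.5. The deepest spots of control 1 at E14.5 were 19 in number with 1 *Runx1* UMI. In the cKO the gene stayed level, at 10.3 and 10.2 in the same bins, and in the E18.5 KO it was at 12.02 and 12.9. *Gadd45a* rose with depth in E18.5 controls, from 47.1 and 40.9 to 58.3 and 54.7. *Hdac4* was flat in those controls, 61.3 and 62.2 at the edge against 55.01 and 60.1 in the depth, while in the E18.5 KO it went from 102 at the edge through 108 and 135 to 160. *Hdac9* in the KO took the opposite course, from 37.0 through 30.7 and 24.99 to 18.3. *Trim63* rose in the E18.5 KO from 82.4 at the edge through 92.1 and 109 to 140. In E18.5 controls *Trim63* was at 90.3 and 105 at the edge against 96.5 and 120 in the depth. *Fbxo32* went from 16.2 through 18.6 and 24.1 to 24.6 in that KO, and from 12.2 and 14.53 to 14.7 and 17.2 in those controls. Differences of these profiles between genotypes were not tested.

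**Figure D5:**
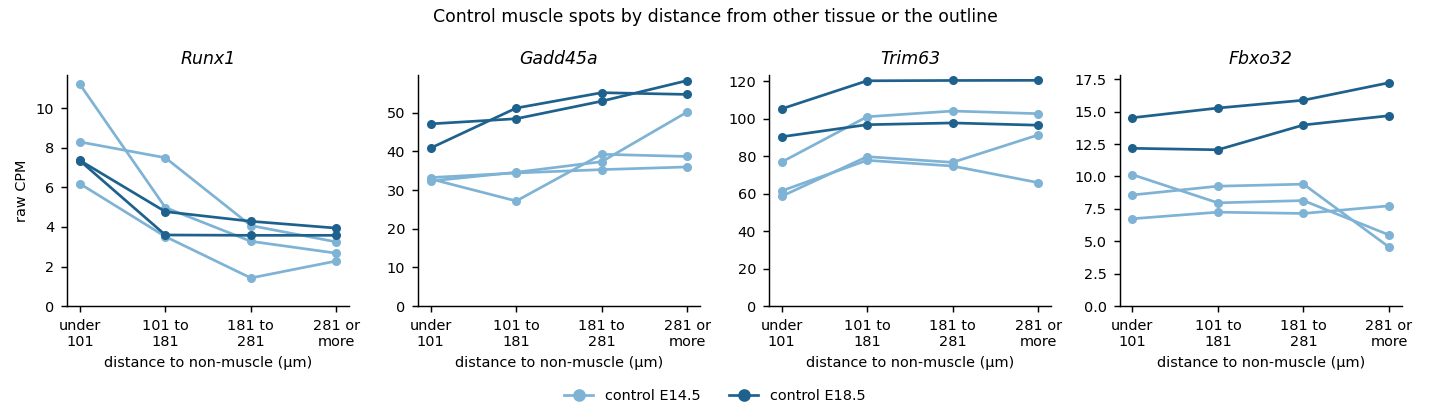
Raw CPM (y axis, from 0) of 4 genes in control muscle spots by distance to the nearest place without muscle, in µm, 1 line per section. *Runx1* is lower at the deepest spots than at the edge in all 5 sections, at 2.28 to 3.94, and *Gadd45a* rises in the E18.5 sections to 54.7 and 58.3.

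Across the 24 sums of region and section, the genes with the pattern most like each member were found by Pearson's r of log2 levels among genes with a mean of at least 20 CPM. For *Trim63* these were *Abra*, an actin-binding activator of serum response factor (r = 0.96), *Pmpca* and *Spag7* (both 0.95). *Ncam1* ran with *Gaa* and *S100a1* (both 0.96) and *Hdac4* with *Bcat2* and *Kif21a* (both 0.96), and *Fbxo32* with *Pank1* (0.94). *Runx1* was most like *Id3* and *Nuak1* (both 0.83), *Gadd45a* like *Tpp1* (0.85), *Hdac9* like *Arfgef1* (0.83) and *Dach2* like *Arpc4* (0.80). The sums share sections, stage and depth, so these values are descriptions without a test. By the deposited Moran's I, a score of how far neighboring spots resemble each other, *Trim63* stood above 87.7% to 95.9% of the scored genes in all 8 sections and *Ncam1* above 72.3% to 97.5%. *Dach2* stood above 0.48% to 45.5%, and no *Dach2* score was over 0.04.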

How the data were processed

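Per the labels and the study's methods, 5 µm sections of fixed diaphragm, cut en face, were hybridized with the version 1 mouse probe set of 10x Genomics and counted on mm10 with Space Ranger; the submitters' processing notes list Space Ranger, Seurat and mm10. Unnormalized UMI counts, 1 value for each spot and gene, were deposited by the authors, with a Moran's I score per gene, which was used only as a rank. File headers name Space Ranger 2.0.0 for 3 sections and 2.0.1 for 5, a difference that crosses groups. The deposited filter left 703 to 3478 spots under tissue a section. Barcodes are positions of the slide and recur by design, 3257 of 4114 in at least 2 sections.

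Spots with at least 1000 UMIs were kept. Muscle spots exceeded the Otsu threshold of their section on the mean log level of *Acta1*, *Actn2*, *Des*, *Myl1*, *Mylpf*, *Neb*, *Ryr1*, *Tnnt3* and *Ttn*. Center spots were the top 15% of muscle spots by *Ache*, *Chrna1*, *Chrnd*, *Chrng*, *Etv5*, *Musk*, *Prkar1a* and *Ufsp1*, periphery spots the top 15% by *Col22a1*, *Ankrd1*, *Rxrg* and *Uchl1*. UMIs were summed per section and region, and sums were tested with edgeR 4.0.16 in R 4.3.3 (filterByExpr, minimum count 10, TMM, quasi-likelihood, Benjamini-Hochberg over all genes, threshold 0.05, two-sided). The fit of muscle spots used 8 sums with 3 residual degrees of freedom, that of muscle against other spots added the section as a block (3 degrees), and so did that of the regions (6 degrees). A single mutant section is assumed to vary like the controls. Sections are the replicates; by the study's description the control sections of a stage come from different diaphragms, and their litters are not given. The block rests on regions of 1 section being the same tissue: deviations of center and intermediate sums from their group means correlated at 0.552, 0.506 and 0.199 at E14.5 and 0.764 at E18.5. The study itself tested spots, which are not replicates, so its test was not used.

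The 8 genes and the lists were chosen with earlier results of these data known. Genes named from a list were the called ones with the largest changes, at most 3 per list and comparison, with 1 gene not reported here. Alternatives were RLE size factors, DESeq2 1.42.0, no filter, leaving out each control, scaling to the 9 muscle genes, muscle spots above the median score, a replicate block, no block, and regions of 10%, 25% or by distance. Scaling to total UMIs was added after seeing the data. The procedure was tested on simulated counts. Depth limits *Dach2* most, with as few as 7 UMIs, and UMI counts across all members ran up to 21497. Probes bind with unequal strength, so levels are not compared between genes.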

Additional observations from a re-analysis of the deposited data

Results flagged for a closer look

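A test of the difference between the KO effects at E18.5 and E14.5 picked out *Dach2* (-3.21) and *Gadd45a* (-0.84) among the members. From the lists it picked out the receptor subunit *Chrnd* (1.35), the kinase *Camk2g* (-0.85), and, of the atrophy program, *Mstn* (-1.71), *Bnip3* (-1.37) and the stress kinase *Map3k4* (-1.35). *Camk2g* lost that call with total UMI scaling. The step from intermediate to center spots, as picked by synaptic genes, differed between KO and controls at E18.5 for *Gadd45a* (0.61) and *Trim63* (0.49). All these are log2 differences, and each rests on 1 KO section per stage. Of the *Dach2* UMIs of E14.5 KO muscle, 45 lay within 101 µm of the muscle edge, as did 327 of the 491 muscle spots.

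Spots outside muscle entered no comparison between genotypes. In 4 cases there, the 95% counting interval (Poisson) of a mutant value lay above those of every control of its stage. That interval covers counting noise within a section and not the spread between embryos. Lower values were not looked for, and the share of all genes that pass this rule was not computed. Values are raw CPM, which shift with the share of contractile transcripts. *Hdac9* was at 45.5 raw CPM in the E18.5 KO, against 27.5 and 23.6 in controls. *Gadd45a* was at 60.1 in the E14.5 KO against 21.2, 30.1 and 33.0, and at 44.8 in the E18.5 KO against 27.8 and 16.5. *Fbxo32* was at 21.1 in the cKO, against 8.79 and 7.24. These differences have no test.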

How the results depend on the processing

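The 96 member results were recomputed under 16 alternatives, which gave 1077 values: 887 kept direction and side of the threshold, 76 lost a call, 44 gained one, 20 changed sign with a call in at least 1 of the fits compared, and 50 changed sign with no call in either. Unless a value or the construction below shows it, the cause was not tested. Each mutant group is 1 section, so no spread within a mutant was measured, and DESeq2 gave no adjusted p for 11 member results. For the stage comparison, a replicate block on control numbers changed none of the 8 member calls; the numbers are only names, since same-numbered controls of the stages correlated at -0.329 and -0.321.

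With DESeq2, called genes numbered 731 (KO at E14.5), 1582 (KO effect by stage, 1 member), 1024 and 450 (center at E14.5, then E18.5, the latter with 0 members), 375 and 1894 (periphery, 0 and 1 members) and 235 (center step of the KO, 0 members). Without a filter they numbered 536 (KO at E14.5) and 1762 (periphery at E14.5, 2 members). Without the section block they numbered 168 (1 member) and 140 (0) in the center, 47 (0) and 990 (1) in the periphery and 0 (0) for the center step. With regions by distance they numbered 2 (0) and 63 (0) in the center, 2547 (3 members) in the E14.5 periphery and 0 (0) for the center step; *Trim63* turned to -0.056 in the E14.5 center and *Ncam1* to -0.16 in the E18.5 periphery. Regions of 10% gave 0 and 7 members in the periphery at the 2 stages and 160 genes with 0 members for the center step, and regions of 25% gave 2 members in the E18.5 center.

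Scaled to the 9 muscle genes, the stage differences were *Runx1* -2.76, *Ncam1* -2.21, *Hdac4* -2.56, *Hdac9* -2.72, *Dach2* -2.39, *Gadd45a* -1.86, *Trim63* -1.97, *Fbxo32* -1.53, *Mef2d* -1.91, *Dach1* -1.95, *Mt1* -0.84, *Klf15* -0.77 and *Bnip3* -0.97. Called genes were then 4939 (4 members) for the KO at E14.5, 12468 (7 members) at E18.5, 3886 for the cKO and 4715 for the KO effect by stage. Signs turned for the E18.5 KO in *Ncam1* (1.36), *Hdac9* (0.62), *Trim63* (0.76), *Fbxo32* (1.26), *Camk2b* (0.35), *Camk2g* (0.43), *Mef2d* (0.51), *Trim55* (0.37) and *Eif4ebp1* (0.41), for the cKO in *Gadd45a* (0.078) and *Mef2a* (0.034), and for the KO effect by stage in *Gadd45a* (0.0074). With total UMI scaling *Hdac4* (-0.10) and *Hdac9* (-0.28) turned between stages, *Ncam1* in the E18.5 KO (0.50) and *Hdac4* in muscle against other spots at E18.5 (-0.30). Called genes were 7997, 2826 and 4655 for the KO at E18.5, the cKO and the KO effect, and 3 members were called between muscle and other spots at E14.5.

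Leaving out 1 control at a time gave 65 to 391 called genes for the KO at E14.5 (65 without control 3), 576 to 1459 (1 to 4 members) for the cKO, 0 to 1105 (0 to 4) for the KO effect by stage, 3110 to 6056 (4 to 6) for muscle against other spots at E14.5, 806 to 2038 (1 to 4) and 512 to 1785 in the center, 344 to 1319 (0 to 1) and 2394 to 4514 (2 to 4) in the periphery, and 109 to 551 (1 to 3) for the center step.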
